A study of Mus musculus with 128 samples.

Results

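Serpina6 and 9 neighbouring genes of serpin clade A were followed through mouse liver development, gene deletion, culture and regeneration. The set was a list of 10 named genes, all found among the 40824 genes of a single-cell read-count table: Serpina6, Serpina1a, Serpina1b, Serpina1c, Serpina1d, Serpina1e, Serpina3k, Serpina3m, Serpina3n and Serpina10. They lie on chromosome 12 between positions 103616675 and 104414334 (GRCm38), a span of 798 kb that starts with Serpina10 and Serpina6, passes through the 5 Serpina1 copies and ends with the 3 Serpina3 genes. The list was chosen by measured values of these libraries. Serpina6 was selected on its level, which was higher in Pard3HMKO than in control libraries at E19.5, and Serpina3k on its rise with age in wild-type embryos, so those values are given below as descriptions without a test, and Serpina3k is tested in other libraries only. All 10 genes passed the filter on low counts in each of the 3 fits used for testing.

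Serpins are proteins that fold around a reactive loop, and most of those in blood plasma trap proteases by letting them cut that loop. Serpina6 encodes corticosteroid-binding globulin, which no longer inhibits proteases and instead carries glucocorticoids in plasma. The Serpina1 copies encode mouse forms of alpha-1 antitrypsin, the plasma inhibitor of neutrophil elastase. The Serpina3 genes are mouse relatives of antichymotrypsin, and Serpina3n in particular is known as an acute phase gene. Serpina10 encodes the protein Z-dependent inhibitor of coagulation factor X. All are made mainly by hepatocytes.

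The study sequenced single liver cells with Smart-seq3xpress, a full-length method, and mapped open chromatin with ATAC-seq. B6C3F1 WT embryos (C57BL/6XC3H, 18 libraries) covered E11.5 to E19.5 and are labelled hepatoblast up to E14.5 and hepatocyte from E15.5. All other mice were C57BL/6. Foxa3Cre Pard3WT controls are labelled Foxa3-Cre alone and Foxa3Cre Pard3HMKO as Foxa3-Cre;Pard3-fl/fl, each with 2 libraries at E11.5, E13.5, E15.5, E17.5, E19.5, P0 and P14. AlfpCre Pard3WT (Alfp-Cre) and AlfpCre Pard3HMKO (Alfp-Cre;Pard3-fl/fl) were taken at E17.5. YapWT (Foxa3-Cre) and YapHMKO (Foxa3-Cre;Yap-fl/fl) were taken at E15.5 and E17.5, and the combined deletion with its own control at E17.5. Foxa3-Cre is driven by a gene of the gut endoderm as well as the liver, and Alfp-Cre by albumin and alpha-fetoprotein elements. E15.5 liver was also kept in culture for 2 days as an untreated control or with the MEK inhibitor U0126, the protein kinase C activator TPPB, the agent labelled PD, or TPPB and PD together. The doses are not given in the labels. Adult groups were P60 mice that all carried Pard3-fl/fl. Their Pard3HMKO libraries came 7 d after injection of AAV-Tbg-Cre, a virus that expresses Cre in hepatocytes, and the labels of their Pard3WT controls give no injection, so the deletion cannot be told apart from the virus. These livers were sampled on days 0, 2 and 7 after a 70% hepatectomy. A group is 2 libraries where no n is printed, and no label says whether these came from separate animals, so p-values measure only the spread between these libraries, which may be technical. The protocol text for the RNA samples describes sorting EpCAM-positive gut endoderm at somite stages and matches none of these liver stages. The RNA sample records fall into separate runs of numbers, and the titles name no batch. B6C3F1 WT at E11.5, E12.5 and E19.5 lies in the later run, and E13.5 to E17.5 in the earlier one. In the Foxa3Cre Pard3 lines E15.5 and E17.5 lie in the earlier run. Their other ages and AlfpCre lie in the later run. Age steps across runs and the Cre line comparison cannot be told apart from a difference between runs.

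The libraries held 7 to 133 cells and 4506130 to 86188713 reads each. The smallest was replicate 1 of Pard3WT at hepatectomy d2, with 7 cells. No cell was shared between libraries. All 8 hepatocyte markers were detected in every group named here. Pard3 reads checked nothing, since counts over the whole gene did not separate the lines (31.3 CPM in Pard3HMKO and 22 CPM in Pard3WT at E17.5) and the deleted exons are not given. Yap1 was low in YapHMKO at E15.5 (1.93 CPM against 64.7) and in culture (4.43 against 179). At E17.5 it was not: the libraries labelled YapHMKO held 44.6 CPM and YapWT 28.1, and those labelled Pard3HMKO YapHMKO 37.9 CPM against 26.2. Directions for these E17.5 groups therefore follow the labels only. Levels are CPM, read counts relative to the library total, with scaling factors set separately in the B6C3F1, in vivo line, culture and adult libraries, so levels are set side by side across those 4 sets as descriptions only.

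The 5 Serpina1 copies share much of their promoter sequence. Their transcript sequences were not compared, so these windows do not show how well RNA reads can be told apart. RefSeq windows of 300 bases (250 before the start of the gene to 50 after it, GRCm38.p6) were found for 6 of the 10 genes: the 5 Serpina1 copies and Serpina3n. The windows of 3 copies are shown because these copies behaved most differently: Serpina1b led early, Serpina1e rose late and was low at P14, and Serpina1c gained and lost its promoter peak in culture. They are written 5′ to 3′ on the gene's own minus strand. Capitals mark TGTTTGC, a form of the forkhead (FOXA) motif, and GTTAAT, the first part of the HNF1 motif.
Serpina1b (chr12:103738140-103738439): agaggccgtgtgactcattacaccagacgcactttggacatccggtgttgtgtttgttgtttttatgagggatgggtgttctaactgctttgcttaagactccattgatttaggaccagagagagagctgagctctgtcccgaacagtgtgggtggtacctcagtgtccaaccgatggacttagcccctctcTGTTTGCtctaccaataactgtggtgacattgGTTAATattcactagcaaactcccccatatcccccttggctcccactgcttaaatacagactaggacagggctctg
Serpina1c (chr12:103904901-103905200): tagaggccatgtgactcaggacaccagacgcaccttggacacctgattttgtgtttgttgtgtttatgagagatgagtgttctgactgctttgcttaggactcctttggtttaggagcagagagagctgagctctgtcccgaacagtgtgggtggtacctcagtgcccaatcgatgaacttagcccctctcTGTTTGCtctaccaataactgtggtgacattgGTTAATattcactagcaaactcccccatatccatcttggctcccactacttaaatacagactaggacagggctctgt
Serpina1e (chr12:103956848-103957147): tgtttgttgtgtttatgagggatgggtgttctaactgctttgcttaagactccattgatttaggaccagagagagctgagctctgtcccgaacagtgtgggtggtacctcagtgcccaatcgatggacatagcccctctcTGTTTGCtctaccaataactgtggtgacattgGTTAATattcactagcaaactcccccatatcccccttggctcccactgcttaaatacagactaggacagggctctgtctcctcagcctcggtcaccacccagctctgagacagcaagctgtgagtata
The longest run of bases common to all 5 Serpina1 windows was 59 bases, and among 32851 promoters only these 5 held it.
Shared run: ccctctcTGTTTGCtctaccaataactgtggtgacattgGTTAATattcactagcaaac
Over the whole window the copies other than Serpina1e were 85.2% to 91.4% identical to each other. Serpina1e aligned at 64.2% to 69.6%, with its start placed about 50 bases further downstream of the shared run: GTTAAT began at position -78 in Serpina1e and at -26 in Serpina1b, counted from the start of the gene. The Serpina3n window was 46.7% to 50.3% identical to those of the Serpina1 copies. The 15 motifs searched on both strands were for HNF1 GTTAAT and the related TTAACNNT, for the forkhead factors TGTTTGC and in another form TGTTTAC, for C/EBP factors TTGNNNAA, TTGCNNAA, ATTGCNNAA and TTNCNNAA, for STAT factors TTCNNNGAA and TTCNNGGAA, for the glucocorticoid receptor AGAACA, and for other nuclear receptors CAAAGTCCA, TGACCTTTG, the half-site AGGTCA and the short piece CAAAG, several of which overlap. The pair in capitals was picked after the matches were seen. GTTAAT lies in 7.1% and TGTTTGC in 5.07% of all 32851 promoters, and both lie in all 5 Serpina1 windows and not in that of Serpina3n. AGAACA, the core of the glucocorticoid receptor half-site, lies in all 6 windows and in 19% of all promoters. A match is a description of letters and not a binding site.

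Serpina6 rose from E11.5 to a peak at E15.5 in Foxa3Cre Pard3WT controls, fell until birth and was higher again at P14. In Foxa3Cre Pard3WT it stood at 343 and 279 CPM at E11.5, 3212 and 3277 at E13.5, 5630 and 4421 at E15.5, 1099 and 666 at E17.5, 272 and 252 at E19.5, 19.4 and 31.9 at P0, and 222 and 226 at P14. No library of one age overlapped those of the next age. It rose by 3.38 ± 0.22 (log2 ± SE) from E11.5 to E13.5 (adjusted p = 1.86e-11). The further rise of 0.63 ± 0.20 to E15.5 was near the threshold (adjusted p = 0.0423) and was lost without scaling factors (adjusted p = 0.334) and without any of 3 single libraries (E15.5 replicate 1 or either E13.5 replicate, adjusted p = 0.168 to 0.363). Serpina6 then fell by 2.51 ± 0.22 to E17.5 (adjusted p = 4.46e-09) and rose by 3.13 ± 0.23 from P0 to P14 (adjusted p = 3.24e-10). The steps between them, of -1.75 ± 0.21 to E19.5 and -3.35 ± 0.24 from E19.5 to P0, use the E19.5 control libraries that chose the gene and are given without a test.

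B6C3F1 WT embryos started higher, dipped at E12.5, peaked at E13.5 and fell at each later age. The fall from E15.5 to E19.5 was shared with Foxa3Cre Pard3WT, and the earlier course was not. In B6C3F1 WT the steps from E12.5 to E13.5 and from E17.5 to E19.5 cross the runs of sample records. They held 5822 and 6015 CPM of Serpina6 at E11.5, 4690 and 4796 at E12.5, 9176 and 9925 at E13.5, 6662 and 6638 at E14.5, 5711, 6312 and 4843 at E15.5, 2752, 2977 and 4030 at E16.5, 1943 and 1798 at E17.5, and 314 and 343 at E19.5. The libraries of the strains stood farthest apart at E11.5, where the summed hepatocyte markers differed as well, at 78020 to 78784 CPM in B6C3F1 WT and 14378 to 14604 CPM in Foxa3Cre Pard3WT. Whether this follows from the strain, the Cre line or the cells taken was not tested.

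**Figure D1:**
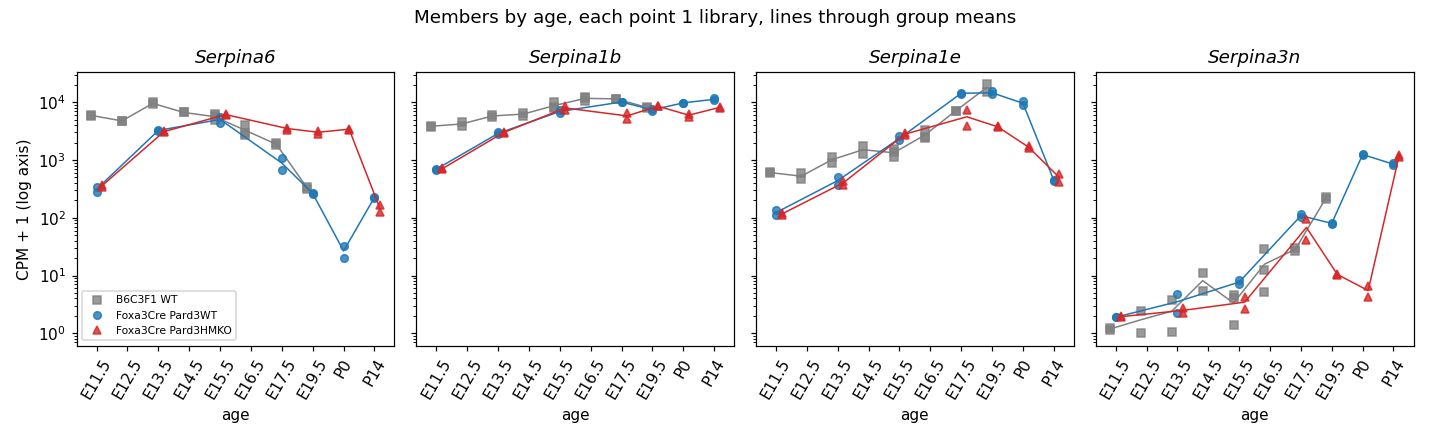
CPM (log axis) of Serpina6, Serpina1b, Serpina1e and Serpina3n by age in B6C3F1 WT, Foxa3Cre Pard3WT and Foxa3Cre Pard3HMKO, with 1 point per library and lines through group means. Serpina6 descends from 5630 and 4421 CPM at E15.5 to 19.4 and 31.9 at P0 in Pard3WT and stays between 2806 and 3642 CPM in Pard3HMKO from E17.5 to P0, while Serpina3n climbs to 1277 and 1206 CPM at P0 in Pard3WT and stands at 5.71 and 3.28 in Pard3HMKO.

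The antitrypsin copies ran against Serpina6 from E15.5 to E17.5. The 5 Serpina1 copies rose from E11.5 to E13.5 (by 1.85 to 3.08), from E13.5 to E15.5 (by 1.16 to 2.43) and from E15.5 to E17.5 (by 0.54 to 2.60). Serpina1b, the leading copy early on, went from 678 and 703 CPM at E11.5 to 10124 and 10032 at E17.5. Its rise from E15.5 to E17.5 (0.54 ± 0.09, adjusted p = 4.31e-05) turned into a fall of -0.22 ± 0.06 without scaling factors (adjusted p = 0.0046), a setting that shifted the median gene by -0.77. Serpina1e went from 110 and 133 CPM at E11.5 to 2173 and 2548 at E15.5 and 13922 and 14614 at E17.5, stayed at 8840 and 10331 at P0, and fell by 4.44 ± 0.26 to 437 and 448 at P14 (adjusted p = 5.63e-12). In adult controls it was again at 12410 and 7570 CPM.

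Reads may be shared among these close copies, and how the counting tool divided them is not given, so the split between copies is uncertain. Per transcript length, Serpina1e took 11.8% of the Serpina1 total at E11.5, 19.3% at E15.5, 44.2% at E17.5, 51% at E19.5, 33.4% at P0 and 2.06% at P14 in Foxa3Cre Pard3WT, and 32.8% in adult controls at d0. Serpina1b took 59.8% at E11.5, 27.9% at E17.5 and 46.5% at P14. The sum of all 5 copies does not depend on how counted reads were divided between them. Whether reads matching several copies were left uncounted is not known, and the sum would miss those. This sum rose from 1070 and 1122 CPM at E11.5 to 32398 and 33299 at E17.5 and stood at 28319 and 29762 at P0 and 22751 and 21144 at P14. Compared between genes per length, Serpina6 reached 10.2% of the albumin gene Alb at E15.5, near Serpina1b with 12.6%, and 0.0362% at P0, when Serpina1b was at 12.6% and Serpina1e at 13.8%.

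The Serpina3 genes came on around birth. Serpina3n stood at 6.15 and 7.23 CPM at E15.5, rose by 4.01 ± 0.48 to 100 and 115 at E17.5 (adjusted p = 7.87e-07), and rose by 3.98 ± 0.46 from 79.7 and 78.1 at E19.5 to 1277 and 1206 at P0 (adjusted p = 6.53e-07). Serpina3m reached 516 and 550 CPM at P0 from 31.4 and 4.13 at E19.5 (4.91 ± 0.85, adjusted p = 0.000185), a call lost when only these libraries were fitted (adjusted p = 0.173). Serpina3k, the contrapsin gene, had 0 reads in every B6C3F1 WT library from E11.5 to E16.5 except 1 library at E14.5 with 2 reads. It stood at 3.61 and 4.27 CPM at E17.5 and 41.1 and 21.7 at E19.5. Depth was lower behind some of these zeros, with medians of 127455 reads per cell at E15.5 and 164122 at E16.5. The median was 516406 to 674153 from E11.5 to E14.5 and 627503 at E17.5. The B6C3F1 WT level at E19.5 rested largely on few cells. There the median cell held 1.52 CPM (without scaling factors), and 1 of 118 cells held at least 1000 CPM. In Foxa3Cre Pard3WT Serpina3k went from 0.874 and 3.78 CPM at E19.5 to 286 and 357 at P0 (7.07 ± 1.23, adjusted p = 0.00025) and to 2162 and 1910 at P14. The P0 level was uneven between cells: the median cell held 7.72 CPM (without scaling factors), and 10 of 118 cells held at least 1000 CPM. Serpina10 varied least: it was at 42.1 and 46.1 CPM at E11.5 and between 145 and 257 CPM in each library from E13.5 to P0, with 105 and 116 at P14.

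Over the 6 age steps of Foxa3Cre Pard3WT, edgeR called 7 of the 10 genes (all higher; 18.4% of 18572 genes were called) for E13.5 against E11.5, 7 (all higher; 13.2%) for E15.5 against E13.5, 8 (7 higher; 21.5%) for E17.5 against E15.5, 3 (all lower; 19.1%) for E19.5 against E17.5, 8 (6 higher; 14.4%) for P0 against E19.5 and 4 (2 higher; 19.4%) for P14 against P0. These counts include Serpina6 at both E19.5 steps, where its control libraries had chosen it. The share called at E19.5 against E17.5 and at P14 against P0 was thus nearest to that of all genes. The median change of the 10 genes was 1.95, 1.21, 1.37, -0.18, 0.39 and 0.11 over these steps, with medians over all genes of 0.00 at each.

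Serpina6 was higher with deletion of Pard3 from E17.5 to P0, and no change of any member passed the test before that with the filter on low counts. No gene of the 10 was called at E11.5, E13.5 or E15.5 (0.0754%, 0% and 0.237% of all genes), where Serpina6 in Pard3HMKO stood at 374 and 344, 3141 and 3045, and 5940 and 6278 CPM. DESeq2 called 0 of the 10 as well. Without a filter on low counts 1 was called at E13.5 (Serpina3n, -0.79 ± 0.20, adjusted p = 0.0294) and 2 at E15.5, Serpina3n (-1.42 ± 0.17, adjusted p = 1.31e-13) and Serpina3m (-3.53 ± 0.50, adjusted p = 1.07e-08). With the filter, 0, 0 and 3 of them (Serpina1a, Serpina1b and Serpina3n at E15.5) had an unadjusted p below 0.05 at the 3 ages. At E17.5 Serpina6 stood at 3353 and 3642 CPM in Pard3HMKO against 1099 and 666 in Pard3WT (1.99 ± 0.21, adjusted p = 3.37e-07, a 3.96-fold difference). With AlfpCre at the same age it stood at 3580 and 3798 CPM against 850 and 991 (2.00 ± 0.21, adjusted p = 1.06e-06). The 2 Cre lines gave effects that differed by 0.02 ± 0.29. At E19.5, the comparison that chose the gene, it stood at 3228 and 2806 CPM against 272 and 252 (3.53 ± 0.23).

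The gap was widest at birth. At P0 Serpina6 stood at 3481 and 3344 CPM in Pard3HMKO against 19.4 and 31.9 in Pard3WT, a 133-fold difference (7.06 ± 0.27, adjusted p = 1.78e-15), and the effect was larger than at E17.5 by 5.07 ± 0.31 (adjusted p = 4.17e-11). By P14 both groups were low, at 162 and 123 CPM against 222 and 226. That small reverse difference (-0.65 ± 0.21, adjusted p = 0.0358) lost its call without scaling factors (adjusted p = 0.0612) and without Pard3HMKO replicate 2 or either Pard3WT library (adjusted p = 0.124 to 0.338).

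Single cells separated in the same direction as the sums. CPM of a cell is its reads relative to its own total without scaling factors, so sizes are not comparable with the sums. At E17.5 the median cell held 373 CPM of Serpina6 in Pard3WT and 3491 CPM in Pard3HMKO, and 20 of 115 control cells against 65 of 65 Pard3HMKO cells held at least 1000 CPM. At E19.5 it was 1 of 132 control cells against 124 of 133. At P0 the medians were 13 and 3458 CPM, and the middle 50% of cells lay between 8.67 and 21.8 CPM in Pard3WT and between 2756 and 4256 in Pard3HMKO. Serpina3n had reads in all 118 control cells at P0 (median 897 CPM) and in 29 of 55 Pard3HMKO cells (median 1.29 CPM), at median depths of 728614 and 658957 reads per cell. Cells of a library are not replicates, and these counts carry no test.

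**Figure D2:**
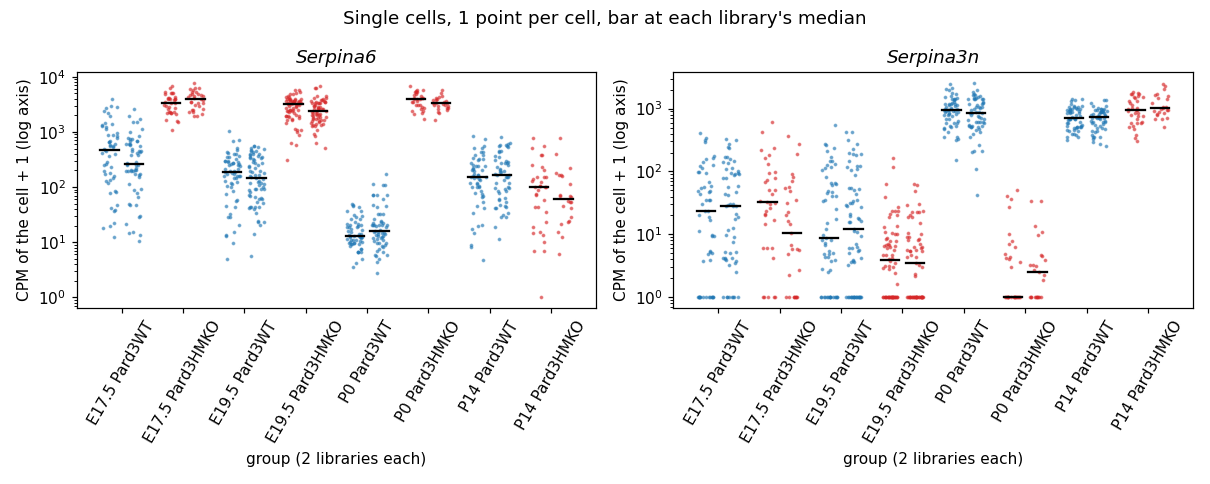
CPM per cell (log axis) of Serpina6 and Serpina3n in Foxa3Cre Pard3WT and Pard3HMKO at E17.5, E19.5, P0 and P14, with 1 point per cell. For Serpina6 the clouds separate from E17.5 to P0 (medians 13 and 3458 CPM at P0) and overlap at P14 (medians 154 and 69.7 CPM), and for Serpina3n they separate at P0 only (medians 897 and 1.29 CPM).

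The Serpina1 copies moved the opposite way from Serpina6 at E17.5, while the Serpina3 genes and Serpina10 did not pass the test with Foxa3Cre. All 5 Serpina1 copies fell with Foxa3Cre deletion of Pard3 at that age by 0.80 to 1.35. Serpina1a, for example, stood at 2683 and 2060 CPM against 4836 and 4964 (-1.05 ± 0.10, adjusted p = 5.24e-08). The summed copies held 18242 and 12314 CPM in Pard3HMKO against 32398 and 33299. Scaling mattered for the size of these falls: without scaling factors the median gene shifted by 0.71, the change of Serpina1b became -0.10 ± 0.06 (adjusted p = 0.241), and Serpina10, not called otherwise (-0.06 ± 0.10), was called higher (0.65 ± 0.10, adjusted p = 9.17e-06). With AlfpCre the 5 copies fell by 0.41 to 1.95 and Serpina3n fell by 3.59 ± 0.47, from 53.5 and 83.4 CPM to 4.51 and 6.84 (adjusted p = 1.56e-05). Without scaling factors the AlfpCre falls of Serpina1b (-0.04) and Serpina1d (-0.18) were no longer called. Serpina1b, Serpina1c and Serpina1d also lost their calls without AlfpCre Pard3HMKO replicate 1 (adjusted p = 0.0641 to 0.0799), Serpina1b and Serpina1d without AlfpCre Pard3WT replicate 2 (0.101 and 0.184), and Serpina1d without AlfpCre Pard3HMKO replicate 2 (0.126). In the Foxa3Cre line Serpina3n was 93.9 and 40 CPM against 100 and 115 (-0.68 ± 0.42, adjusted p = 0.34), and the difference between the Cre lines was -2.91 ± 0.61 (adjusted p = 0.00757). That difference was not called without replicate 1 of either Pard3HMKO group (adjusted p = 0.0713 for Foxa3Cre and 0.0604 for AlfpCre) or with only the 8 libraries (adjusted p = 0.0761).

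At P0 all 10 genes were called, against 21.8% of all genes: Serpina6 and Serpina10 rose and the other 8 fell, with a median of -1.68 over the 10 and -0.02 over all genes. The Serpina3 genes, which came on at birth in controls, were nearly absent. Serpina3n stood at 5.71 and 3.28 CPM against 1277 and 1206 (-8.09 ± 0.57, adjusted p = 8.49e-11), Serpina3m at 1.48 and 1.77 against 516 and 550 (-8.36 ± 1.04, adjusted p = 1.60e-06), and Serpina3k at 1.72 and 1.66 against 286 and 357 (-7.56 ± 1.29, adjusted p = 0.000129). Serpina1e fell from 8840 and 10331 CPM to 1596 and 1744 (-2.52 ± 0.24, adjusted p = 1.70e-08), and the other copies by 0.71 to 2.11. Serpina10 rose from 145 and 158 CPM to 282 and 286 (0.91 ± 0.10, adjusted p = 6.52e-09).

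By P14 Serpina3n and Serpina3m were no longer low in Pard3HMKO. Serpina3n stood at 1136 and 1212 CPM in Pard3HMKO against 870 and 816 (0.48 ± 0.41, adjusted p = 0.518) and Serpina3m at 453 and 464 against 635 and 703 (-0.54 ± 0.72, adjusted p = 0.711). Neither passed the test in the fit of all lines, though both did when only the 4 libraries were fitted (adjusted p = 0.00491 and 0.00534). Serpina3k was still low: it stood at 17.8 and 15.4 CPM against 2162 and 1910 (-6.93 ± 1.19, adjusted p = 0.0002). The effect on Serpina3n changed from P0 to P14 by 8.57 ± 0.68 (adjusted p = 1.66e-09) and that on Serpina3m by 7.82 ± 1.21 (adjusted p = 5.61e-05), while that on Serpina3k changed by 0.63 ± 1.49 (adjusted p = 0.93). Serpina10 was higher at 278 and 274 CPM against 105 and 116 (1.33 ± 0.10, adjusted p = 2.68e-12). Serpina1d (-1.05 ± 0.13), Serpina1c (-0.55 ± 0.18) and Serpina1b (-0.46 ± 0.09) remained lower and Serpina1a and Serpina1e were not called. The Serpina1c call ended without any of the 4 libraries (adjusted p = 0.0838 to 0.236). The summed copies were lower by -0.38 ± 0.13 (adjusted p = 0.0465).

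In all, edgeR called 6 of the 10 genes at E17.5 (1 higher; 14.9% of all genes), 7 with AlfpCre (1 higher; 5.27%), 10 at P0 and 6 at P14 (1 higher; 16.7%). At E19.5, where no test of the members is given, 6.95% of all genes were called and the changes beyond Serpina6 ranged from -3.21 ± 0.86 for Serpina3m and -1.95 ± 0.23 for Serpina1e to 0.21 ± 0.09 for Serpina1b. The change of the Pard3 effect from E17.5 to P0 was called for 6 of the 10 (12.4% of all genes), that from P0 to P14 for 7 (15.6%), and the difference between Cre lines for 1 (2.91%). The counts were 4 with AlfpCre and 0 for the difference between Cre lines once cells holding markers of other cell types were left out.

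Other cell types and the hepatocyte markers themselves moved with these groups. At E17.5 the summed hepatocyte markers were 420780 to 464797 CPM in Foxa3Cre Pard3WT and 167275 to 221389 in Pard3HMKO, the stellate markers 46.3 to 53.2 and 113 to 116 CPM (10 of 13 and 12 of 13 detected, with Rgs5 at 0 in both), and cells with reads for at least 50% of the markers of another type made up 5% to 5.45% and 19.4% to 20.6%. At P0 such cells made up 53.3% to 81% of Pard3WT and 80% to 100% of Pard3HMKO, with erythroid sums of 3871 to 5641 and 2063 to 7368 CPM and macrophage sums of 226 to 1295 and 84.2 to 117 CPM. At P14 they made up 52.6% to 58.9% and 88.6% to 100%. Their part in the results was not tested beyond leaving those cells out, which left the count of called genes at E17.5 with Foxa3Cre within 1.5 times of that given. At P0 and P14 every cell of Pard3HMKO replicate 2 (25 of 25 and 24 of 24) and 24 of 30 and 31 of 35 cells of replicate 1 were such cells, so leaving them out reduces the group to a few cells of 1 library and does not check those counts. In summed cells, fewer cells expressing a gene and less RNA per cell cannot be told apart, which is why values per cell are given for Serpina6 and Serpina3n.

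Libraries labelled YapHMKO repeated the E17.5 picture. Serpina6 stood at 3080 and 3769 CPM against 521 and 753 in YapWT (2.43 ± 0.21, adjusted p = 3.01e-08), and in the libraries labelled Pard3HMKO YapHMKO at 3334 and 3310 against 824 and 675 (2.15 ± 0.21, adjusted p = 1.18e-07). The 5 Serpina1 copies fell by 0.64 to 1.75 in the former and by 0.72 to 1.75 in the latter. Serpina1e, for example, stood at 9038 and 5729 CPM in the libraries labelled YapHMKO against 23889 and 25706. Without scaling factors Serpina1b lost its call in both (0.03 ± 0.06 and -0.03 ± 0.06) and Serpina10 was called higher (0.48 ± 0.10 and 0.58 ± 0.10). The low and uneven Serpina3k counts (5.03 and 91.9 CPM in YapWT) gave calls that ended without YapWT replicate 2 (adjusted p = 0.137), and in the combined deletion without control replicate 2 or either library of the deletion (adjusted p = 0.0715 to 0.189). In the combined deletion the call of Serpina3n (-1.34) ended without either control library or without replicate 2 of the deletion (adjusted p = 0.0836 to 0.36). In all 7 of 10 (1 higher; 14.4% of all genes) and 8 of 10 (1 higher; 14.6%) were called. At E15.5, where Yap1 itself was low, Serpina6 stood at 5900 and 6218 CPM in YapHMKO against 7713 and 7235 (-0.30 ± 0.20, adjusted p = 0.664), and 2 of 10 genes were called (0.302%): Serpina1b at 7631 and 7794 CPM against 5763 and 5204 (0.49 ± 0.09, adjusted p = 0.00772) and Serpina3n at 13.9 and 5.41 against 58.3 and 51.9 (-2.52 ± 0.44, adjusted p = 0.00756). Both calls ended when only the 4 libraries were fitted (adjusted p = 0.651 and 0.353) and without YapHMKO replicate 2 (adjusted p = 0.0555 and 0.113), and that of Serpina1b also without YapWT replicate 2 (adjusted p = 0.147).

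**Figure D3:**
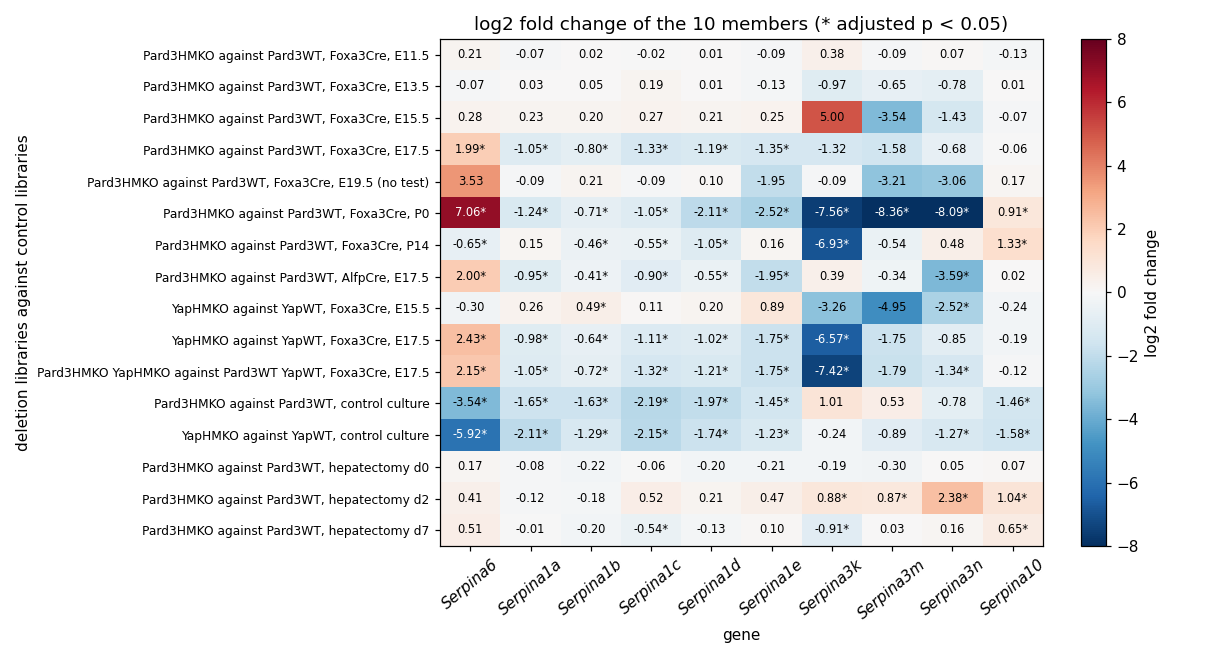
Log2 difference of each of the 10 genes (columns) between a line with a deletion and its control (rows). Values are printed as numbers and shown as colour, which is clipped at 8 in each direction. Serpina6 is the only column with positive values of 1.99 to 7.06 from E17.5 to P0, and the Serpina3 columns reach -7.56 to -8.36 at P0.

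Genes linked to the members by function were counted from fixed lists. Of all genes, 14.9% were called at E17.5, 21.8% at P0 and 16.7% at P14. Without scaling factors the median gene shifted by 0.71 at E17.5, 0.46 at P0 and 0.00 at P14. List genes were not followed in that setting, so falls near the size of the shift depend on the scaling. Among 10 tested other clade A serpins, 1 rose and 1 fell at E17.5 and again at P0, near the shares of all genes. Serpina7, the thyroxine carrier and like Serpina6 a serpin that binds a hormone, fell with Serpina1 and not with Serpina6 (-1.27 ± 0.20 at E17.5, -3.26 ± 0.21 at P0, adjusted p = 1.55e-05 and 6.73e-14), and was higher at P14 (1.52 ± 0.20, adjusted p = 5.21e-07). Of 14 other liver serpins, 1 rose and 6 fell at E17.5, 2 rose and 6 fell at P0, and 9 rose at P14. The antithrombin gene Serpinc1 changed by -1.11 ± 0.10, -0.80 ± 0.10 and 0.65 ± 0.10 over these ages, a gene that is also on the hepatocyte marker list. Of 16 genes of the glucocorticoid axis, 2 rose and 5 fell at E17.5 (median -0.65), 2 and 8 at P0 (median -1.55) and 1 and 6 at P14 (median -0.66), against medians of 0.00, -0.02 and 0.00 over all genes. The receptor gene Nr3c1 fell by 0.96 ± 0.19 at E17.5 (adjusted p = 0.000347). Hsd11b1, which regenerates active glucocorticoid, fell from 261 ± 6.37 (mean ± SD) to 12.7 ± 3.26 CPM at P0 (-4.35 ± 0.45, adjusted p = 4.30e-08). The glucocorticoid-responsive genes Pck1 (-7.52 ± 0.74) and Klf9 (-5.16 ± 0.74) fell at P0, while the receptor co-chaperone Fkbp4 rose (1.50 ± 0.11).

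Of 18 acute phase genes, 7 fell at E17.5, 1 rose and 10 fell at P0 (median -1.77), and 9 rose and 3 fell at P14 (median 1.35). The shares of all genes called at these ages were 14.9%, 21.8% and 16.7%. The shift of the median gene without scaling factors given above holds for the genes of this paragraph as well. Haptoglobin, Hp, fell from 7779 ± 219 to 71.8 ± 1.24 CPM at P0 (-6.76 ± 0.49, adjusted p = 1.92e-10), and the pentraxin Apcs by 4.54 ± 0.26. Of 11 tested proteases and partners of serpins, 7 fell at E17.5, 7 fell at P0 and 4 rose at P14. F10, the factor X gene whose product the Serpina10 protein inhibits, fell by 1.10 ± 0.10 at P0 while Serpina10 rose by 0.91 ± 0.10. Of 13 liver transcription factors 2 rose and 3 fell at E17.5, with Hnf4a at 0.54 ± 0.12 and Cebpa at -0.74 ± 0.13. At P0 7 of the 13 fell, Foxa3 by 0.64 ± 0.12 and Hnf4a by 0.55 ± 0.12 among them. These lists were written with earlier results of the same libraries known.

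In culture Serpina6 and all 5 antitrypsin copies were lower with TPPB and in either deletion line, and PD raised them in the deletion lines except for Serpina1e in Pard3HMKO (0.86, adjusted p = 0.0575). After 2 days Pard3WT control cultures held 778 and 812 CPM of Serpina6. TPPB cultures held 24.1 and 24.3 CPM (-5.04 ± 0.43, adjusted p = 7.32e-07), U0126 cultures 184 and 207 (-2.03 ± 0.38, adjusted p = 0.00137), and PD cultures 508 and 356 (-0.88 ± 0.36, adjusted p = 0.128). The PD difference was called in 4 other settings: with DESeq2 (adjusted p = 0.0415), without scaling factors (adjusted p = 0.0309), without a filter on low counts (adjusted p = 0.000168) and with only those 4 libraries (adjusted p = 0.0154). TPPB and PD together gave 226 and 375 CPM, higher than TPPB alone by 3.64 ± 0.41 (adjusted p = 3.37e-06) and not distinguished from PD alone (-0.52 ± 0.36, adjusted p = 1).

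Serpina1c had the widest swing of the antitrypsin copies. It stood at 235 and 164 CPM in control cultures, 8.87 and 5.68 with TPPB (-4.78 ± 0.38, adjusted p = 1.22e-07), 564 and 512 with PD (1.43 ± 0.32, adjusted p = 0.00489), 487 and 422 with U0126 (1.19 ± 0.32, adjusted p = 0.0179), and 476 and 532 with TPPB and PD together (6.12 ± 0.40 against TPPB, adjusted p = 1.82e-09). Without control replicate 2 neither the PD nor the U0126 rise was called (adjusted p = 0.094 and 0.206), and the U0126 rise was not called without either U0126 library (adjusted p = 0.0576 and 0.139). The summed copies changed by 0.23 ± 0.26 with PD and by -0.11 ± 0.26 with U0126, neither called; the split of reads between copies was not tested. Serpina1b, the copy with the most reads, went from 3484 and 2613 CPM to 394 and 373 with TPPB (-2.99 ± 0.27) and stood at 2771 and 2787 with PD (-0.13 ± 0.25, adjusted p = 0.807). The summed copies fell from 5400 and 3866 CPM to 553 and 526 with TPPB. Serpina10 fell from 667 and 705 CPM to 146 and 115 with TPPB (-2.39 ± 0.22, adjusted p = 1.70e-07). Serpina3n, at 12 and 13.2 CPM in control cultures, fell with PD to 4.41 and 3.11 (-1.74 ± 0.39) and with U0126 to 3.74 and 2.8 (-1.93 ± 0.39). The PD call ended without PD replicate 2 (adjusted p = 0.0697).

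Cultured Pard3HMKO control cells held less of these genes than cultured Pard3WT cells, the reverse of the in vivo direction for Serpina6. Serpina6 stood at 80.6 and 56 CPM against 778 and 812 (-3.54 ± 0.40, adjusted p = 5.17e-05), and Serpina1a to Serpina1e fell by 1.45 to 2.19. Of these calls, that of Serpina1d ended without Pard3WT control replicate 1 or Pard3HMKO control replicate 1 (adjusted p = 0.0558 and 0.0619) and that of Serpina1e without any of the 4 libraries (adjusted p = 0.0735 to 0.17). Serpina10 fell to 297 and 202 CPM (-1.46 ± 0.21, adjusted p = 0.000189). PD brought Serpina6 in Pard3HMKO to 343 and 658 CPM (2.87 ± 0.39, adjusted p = 6.42e-05) and U0126 to 542 and 491 (2.92 ± 0.39, adjusted p = 3.94e-05). The PD effect on Serpina6 differed between Pard3HMKO and Pard3WT by 3.75 ± 0.53 (adjusted p = 0.00229), and that on Serpina10 by 1.25 ± 0.30 (adjusted p = 0.0484). The Serpina10 difference was not called without any 1 of 7 of the 8 libraries, all but Pard3HMKO control replicate 1 (adjusted p = 0.0934 to 0.237). Serpina1c rose from 31.8 and 55.5 CPM to 249 and 385 with PD (2.86 ± 0.34) and to 385 and 393 with U0126 (3.15 ± 0.34).

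In the Yap line Serpina6 was again lower with TPPB and with the deletion, and higher with PD in the deletion. It stood at 805 and 589 CPM in YapWT control cultures, 1053 and 1103 with PD (0.63 ± 0.36, adjusted p = 0.27), 10.3 and 25.6 with TPPB (-5.28 ± 0.44, adjusted p = 5.14e-07), 10 and 12.9 in YapHMKO control cultures (-5.92 ± 0.45, adjusted p = 3.73e-07) and 620 and 435 in YapHMKO with PD (5.52 ± 0.45 against its control, adjusted p = 1.14e-07). Serpina3k stood at 66.9 to 143 CPM in all 10 libraries of the Yap line and at 0.626 to 3.67 CPM in all 16 of the Pard3 line, with Serpina3n at 22.6 to 118 and 2.8 to 13.2 CPM. Serpina3k had reads in 100% of cells of each Yap line culture group, with medians of 73.3 to 84.8 CPM without scaling factors. In Pard3 line groups 25% to 57.5% of cells had reads, with medians of 0 to 1.26 CPM. YapWT and Pard3WT are both labelled Foxa3-Cre, so the difference lies between sets of cultures as well as between lines. Neither it nor its cause was tested. Macrophage marker sums were higher in YapWT control cultures (565 to 1013 CPM) than in Pard3WT control cultures (64.3 to 68). In YapWT cultures with PD they were 30.6 to 33.2 CPM, and Serpina3k stood at 100 and 94.3 CPM.

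For Pard3WT cultures edgeR called 2 of the 10 genes with PD (1 higher; 14.8% of 16715 genes), 7 with TPPB (all lower; 6.78%), 3 with U0126 (1 higher; 13.1%), 8 for TPPB PD against TPPB (7 higher; 26.1%) and 0 for TPPB PD against PD (0% of all genes; DESeq2 called 0 and 0 had an unadjusted p below 0.05). In Pard3HMKO cultures 7 were lower than in Pard3WT (4.90% of all genes), 6 rose with PD (2427 of 16715 genes were called) and 7 rose with U0126 (17.8%). In the Yap line 2 were called for PD in YapWT (1 higher; 2926 of 16715 genes were called), 8 fell with TPPB (10.4%), 8 were lower in YapHMKO (9.17%) and 7 rose with PD in YapHMKO (20.0%). The difference in PD effect between Pard3HMKO and Pard3WT was called for 2 (0.808%). The YapHMKO count of 8 became 2 when only the 4 libraries were fitted, 4 without YapWT control replicate 1 and 5 without either YapHMKO control library. The count of 2 for PD in YapWT became 0 to 4 without single libraries, and the count of 2 for PD in Pard3WT became 1 without control replicate 2 or PD replicate 2. The summed hepatocyte markers followed the same order, at 29114 to 31433 CPM in Pard3WT control, 5860 to 6304 with TPPB, 10063 to 11192 in Pard3HMKO control and 18812 to 22467 in Pard3HMKO with PD. Whether the serpin changes go beyond this was not tested.

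**Figure D4:**
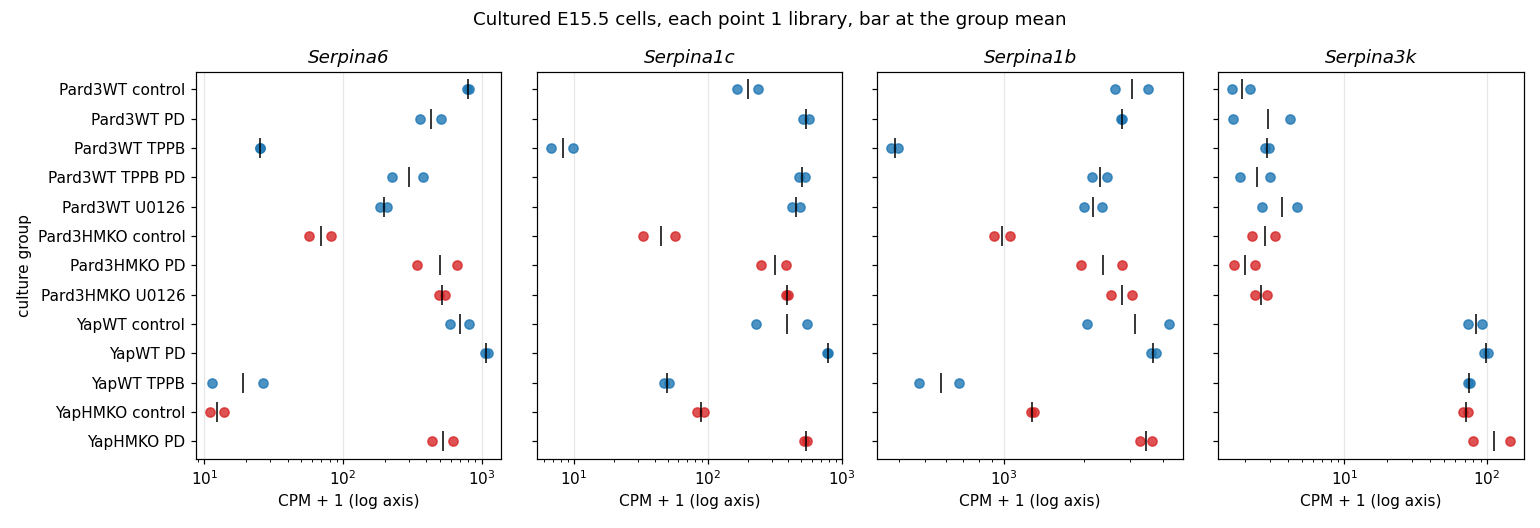
CPM (log axis) of Serpina6, Serpina1c, Serpina1b and Serpina3k in the 13 culture groups, with 1 point per library. TPPB in either control line and both deletion lines without an agent lie lowest for Serpina6 (10 to 80.6 CPM), and Serpina3k separates the Yap line (66.9 to 143 CPM) from the Pard3 line (0.626 to 3.67 CPM).

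Other liver genes from the lists moved in culture as well. Of all genes, 6.78% were called with TPPB in Pard3WT and 4.90% in Pard3HMKO control cultures. With PD in Pard3HMKO 2427 of 16715 genes were called. With TPPB, 7 of 9 tested proteases and partners fell (median -3.40), with F10 at -4.11 ± 0.24 among them, and 5 of 13 other liver serpins fell, Serpinf2 (alpha-2-antiplasmin) by 4.33 ± 0.28. In Pard3HMKO control cultures 6 of 9 proteases and partners fell (median -2.20) and 0 of 15 genes of the glucocorticoid axis passed the test. The transcription factor gene Cebpd rose in both (2.95 ± 0.64 with TPPB, 3.23 ± 0.65 in Pard3HMKO), and Prox1, which marks the hepatocyte lineage, fell (-1.44 ± 0.30 and -1.77 ± 0.30). PD in Pard3HMKO gave 6 of 9 proteases and partners higher and Hnf4a higher by 1.16 ± 0.30 (adjusted p = 0.0109).

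In adult liver Serpina6 all but disappeared 2 days after hepatectomy and was back by day 7. Pard3WT libraries held 173 and 145 CPM at d0, 0 and 1.03 at d2 and 168, 179, 151 and 157 at d7 (n = 4). The d2 values rest on 0 reads in the 7-cell library and 73 reads in the other. Pard3HMKO libraries held 209 and 150 CPM at d0, 1.31 and 0.894 at d2, and 187 to 320 (median 224) at d7 (n = 6). The fall from d0 to d2 was -7.59 ± 0.45 in Pard3WT and -7.35 ± 0.42 in Pard3HMKO (adjusted p = 2.94e-10 and 1.75e-10), and the return by d7 was 7.63 ± 0.44 and 7.73 ± 0.42 (adjusted p = 1.39e-10 and 5.57e-11). The size in Pard3WT rests on few reads: without replicate 2 of d2, which leaves the 7-cell library with 0 reads, the fitted fall became -15.56, the return 15.60 and the line difference at d2, 0.41 in all libraries, 8.39. These are not folds, and over the other settings tried the fall lay at or beyond -6.91 and the return at or above 7.09. At d2 Serpina6 had reads in 17 of 83 Pard3WT cells and 43 of 115 Pard3HMKO cells, at median depths of 924598 and 1297174 reads per cell, against 113 of 113 and 119 of 119 cells at d0.

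From d0 to d2, when Serpina6 fell, Serpina3n and Serpina3m rose in both lines and Serpina3k in Pard3HMKO. Serpina3n stood at 302 and 458 CPM at d0 and 1545 and 1676 at d2 in Pard3WT (2.08 ± 0.23, adjusted p = 1.10e-06), and at 297 and 489 and then 7903 and 8826 in Pard3HMKO (4.41 ± 0.25, adjusted p = 1.69e-10). Its rise was larger in Pard3HMKO by 2.33 ± 0.32 (adjusted p = 0.000361). At d7 it was at 307 to 393 CPM in Pard3WT and 347 to 502 in Pard3HMKO, again overlapping. Serpina3m went from 310 and 271 CPM to 1430 and 1397 in Pard3WT (2.28 ± 0.19) and from 229 and 244 to 2510 and 2673 in Pard3HMKO (3.45 ± 0.20). Serpina3k was at 9892 and 8206 CPM and then 10633 and 10242 in Pard3WT (0.21 ± 0.15, adjusted p = 0.435), and rose from 8029 and 7807 to 17932 and 20458 in Pard3HMKO (1.28 ± 0.16, adjusted p = 4.01e-06).

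No member differed between the adult lines before surgery beyond the threshold (0 of 10 called by edgeR or DESeq2 and 0 at an unadjusted p below 0.05; 0% of all genes, with Serpina6 at 0.17 ± 0.31). At d2 Pard3HMKO livers were higher in 4 (3.18% of all genes): Serpina3n (2.38 ± 0.23, adjusted p = 3.08e-06), Serpina3k (0.88 ± 0.16, adjusted p = 0.00192), Serpina3m (0.87 ± 0.18, adjusted p = 0.0073) and Serpina10, at 563 and 569 against 258 and 292 CPM (1.04 ± 0.27, adjusted p = 0.0329). Without scaling factors, which shifted the median gene by -0.45, only Serpina3n of these 4 was called and Serpina1b was called lower (-0.64 ± 0.15, adjusted p = 0.0178). The Serpina3m call also ended without the 7-cell Pard3WT library (adjusted p = 0.0662) or without Pard3HMKO replicate 2 (adjusted p = 0.0752), and the Serpina10 call without the 7-cell library or either Pard3HMKO library (adjusted p = 0.133 to 0.265). At d7 3 were called (5.52%): Serpina3k was lower in Pard3HMKO, at 3824 to 5201 CPM (n = 6) against 7293 to 9903 (n = 4), with no overlap (-0.91 ± 0.10, adjusted p = 4.54e-06), Serpina1c was lower (-0.54 ± 0.11, adjusted p = 0.00575) and Serpina10 higher (0.65 ± 0.17, adjusted p = 0.0309). The Serpina10 call ended without any of the 4 Pard3WT libraries or Pard3HMKO replicate 3 (adjusted p = 0.0596 to 0.094). The Serpina1c call ended without cells holding markers of other types (adjusted p = 0.0762), and the summed copies differed by -0.09 ± 0.20. At d7 such cells made up 28.6% to 100% of Pard3HMKO (replicates 3 and 4 at 100%) and 17.4% to 29.8% of Pard3WT libraries. Stellate sums were 37.6 to 259 and 4.26 to 25.9 CPM (13 of 13 markers detected in both lines), macrophage sums 31.6 to 118 and 23.4 to 30 CPM (16 of 16), and cholangiocyte sums 20.8 to 429 and 22.7 to 66.7 CPM (6 and 7 of 8, with Cftr at 0 in both). Without those cells, and so without Pard3HMKO replicates 3 and 4, the Serpina3k and Serpina10 calls were made in the same direction. Beyond this their part was not tested.

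Among the antitrypsin copies Serpina1c and Serpina1d fell at d2 while Serpina1a and Serpina1b did not pass the test. Serpina1c went from 4057 and 4051 CPM to 1110 and 1521 in Pard3WT (-1.62 ± 0.18, adjusted p = 1.30e-06) and from 3694 and 4099 to 2074 and 1691 in Pard3HMKO (-1.05 ± 0.18, adjusted p = 0.000196). Serpina1d fell by 1.44 ± 0.25 and by 1.03 ± 0.25, the latter not called without Pard3HMKO d0 replicate 2 or d2 replicate 1 (adjusted p = 0.0636 and 0.0861). The summed copies changed by -0.95 ± 0.32 and -0.69 ± 0.32, neither called (adjusted p = 0.0574 and 0.164). Serpina1e spread widely between libraries of 1 group, from 6794 to 15632 CPM at d7 in Pard3WT and from 5768 to 20368 in Pard3HMKO, and was called in no adult comparison. Serpina10 rose at d2 in Pard3WT (0.84 ± 0.27) and Pard3HMKO (1.81 ± 0.27), the former not called without any 1 of the 4 libraries (adjusted p = 0.071 to 0.186). In all 6 of 10 genes were called for d2 against d0 in Pard3WT (3 higher; 15.7% of 15391 genes), 6 for d7 against d2 (3 higher; 21.6%), and 7 and 7 in Pard3HMKO (4 and 3 higher; 18.9% and 20.3%). The step from d0 to d2 differed between lines for 3 (2.36%) and that from d2 to d7 for 4 (4.70%).

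**Figure D5:**
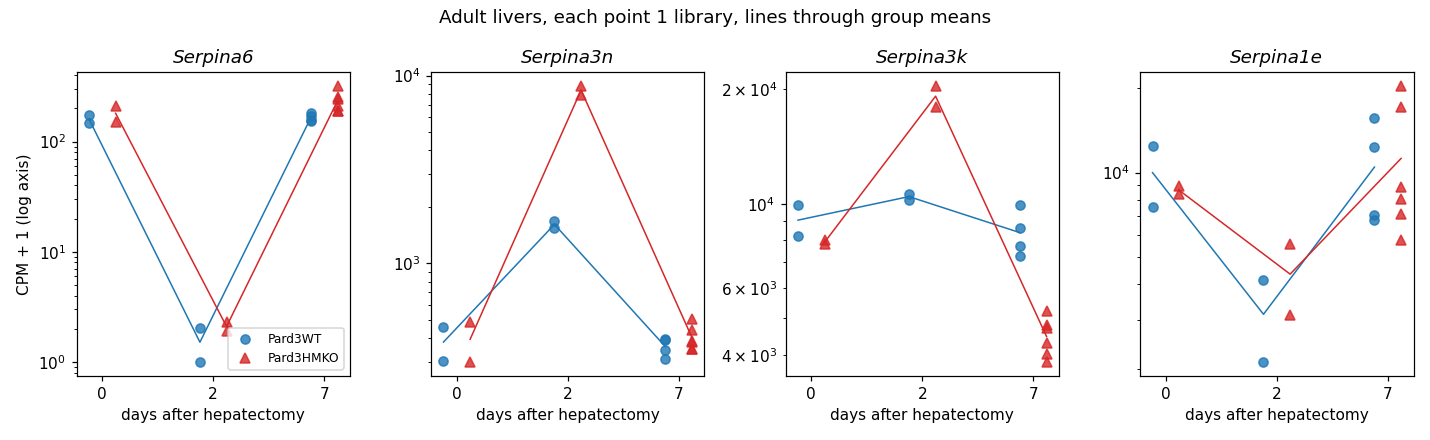
CPM (log axis) of Serpina6, Serpina3n, Serpina3k and Serpina1e in P60 Pard3WT and Pard3HMKO livers on days 0, 2 and 7 after hepatectomy, with 1 point per library. Serpina6 drops to 0 to 1.31 CPM at day 2 in both lines, and Serpina3n peaks at 1545 and 1676 CPM in Pard3WT and 7903 and 8826 in Pard3HMKO.

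The acute phase list rose beside Serpina3n at d2 in Pard3WT, with 12 of 18 genes higher and 0 lower (median 2.35 against -0.06 over all genes), and in Pard3HMKO with 15 of 18 (median 3.21). Of all genes, 15.7% were called for d2 against d0 in Pard3WT and 18.9% in Pard3HMKO. Lcn2 rose by 7.75 ± 0.91, Apcs by 3.78 ± 0.25 and Orm1 by 2.79 ± 0.27 in Pard3WT. Of 15 genes of the glucocorticoid axis 5 rose and 6 fell, with the tyrosine catabolism gene Tat at 1.62 ± 0.25, Fkbp5 at 1.89 ± 0.36 and Hsd11b1 at -2.01 ± 0.16. Of 10 other clade A serpins 3 rose, Serpina3i (9.27 ± 1.03), Serpina3f and Serpina3h, and 1 fell. Cebpa fell by 2.44 ± 0.25 and Cebpd rose by 2.83 ± 0.68. Erythroid sums were 48.1 and 593 CPM at d0 and ranged from 7.59 to 4973 CPM at d2 in Pard3WT, and their part in these results was not tested.

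Open chromatin was mapped in 22 libraries as peak positions (3 libraries per E17.5 group and 2 per culture group), and 33 of 98399 merged regions lay within 10 kb of a member (mm10). A region is called gained or lost here when all libraries of one group and none of the other held a peak, which is no test. Peaks at the start of Serpina10 (12:103630836-103631928) and Serpina1b (12:103737701-103738825) were present in every library of every group. The peak at the start of Serpina1c, over the window printed above (12:103904725-103905362), was in 3 of 3 libraries of each E17.5 group, in 2 of 2 of Pard3WT control and PD cultures, in 0 of 2 with TPPB, in 0 of 2 of Pard3HMKO control cultures and in 2 of 2 of Pard3HMKO with PD. Its read level was lowest in the same groups, at 8.87 and 5.68 CPM with TPPB and 31.8 and 55.5 in Pard3HMKO control. The peak at the start of Serpina1d (12:103773229-103774016) was in all E17.5 libraries and, in culture, in those with PD only. That at the start of Serpina1e (12:103956520-103957509) was in all E17.5 libraries and in no culture library.

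A region of 1965 bases just beyond the 3′ end of Serpina1a (12:103850934-103852898) held a peak in 3 of 3 Pard3WT and 3 of 3 YapWT libraries and in 0 of 3 of Pard3HMKO and of those labelled YapHMKO at E17.5, where the Serpina1 copies had fallen. A region of 2601 bases next to Serpina1e (12:103944313-103946913) was in 3 of 3 YapWT and 0 of 3 libraries labelled YapHMKO, but in 2 of 3 of both Pard3 groups. Near Serpina3m, 12:104385900-104386401 was in 3 of 3 Pard3WT and 0 of 3 Pard3HMKO libraries. At the outer end of Serpina6 (position 103657218), 12:103656811-103657215 held a peak in 2 of 3 Pard3HMKO and 0 of 3 Pard3WT libraries at E17.5, when the level of the gene was 3.96-fold higher, and in 0 of 3 YapWT and 0 of 3 libraries labelled YapHMKO. Outside the gene, 12:103660470-103660741 was in 2 of 3 Pard3WT and YapWT libraries and in 0 of 3 of both deletions. Neither meets the rule for gained or lost. Another region near Serpina6, 12:103643371-103643729, was in 3 of 3 Pard3WT and 2 of 3 Pard3HMKO libraries at E17.5, and in culture in 2 of 2 control and 0 of 2 PD, TPPB and Pard3HMKO control libraries.

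Of all regions, 8.33% were gained or lost in Pard3HMKO at E17.5 (2 of 29 near the members, both lost) and 7.20% in the libraries labelled YapHMKO (2 of 23, both lost). In culture the shares were 22.8% for PD in Pard3WT (3 of 17, 1 gained), 17.0% for TPPB (3 of 13, all lost), 14.0% for Pard3HMKO against Pard3WT (3 of 13, all lost) and 15.4% for PD in Pard3HMKO (4 of 12, 3 gained). The E17.5 shares near the members are close to those of all regions. With 2 or 3 libraries per group a missing peak may be a peak under the authors' threshold.

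Across all 49 groups of libraries, no other member followed Serpina6 closely. The correlation of log2 CPM with Serpina6 over groups was -0.70 for Serpina3k, -0.66 for Serpina3m, -0.62 for Serpina3n, 0.39 for Serpina1b, 0.23 for Serpina1a, 0.12 for Serpina1e, 0.10 for Serpina1d, 0.06 for Serpina10 and -0.09 for Serpina1c. Among 11489 genes reaching 10 CPM in a group, those most like it were Gcat (0.89), Habp2 (0.88), Nipsnap1 (0.88), Zfyve21 (0.86) and Jmjd8 (0.85), and those least like it S100a10 (-0.85), Tspo (-0.84) and Mad2l2 (-0.81). By rank correlation the most alike were Igsf1, Shbg, Bcas1, Bex2 and Lgals2 (0.89 to 0.90). Shbg encodes the plasma carrier of sex hormones. The groups share ages, controls, scaling and library preparation, so these values are descriptions with no p.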

How the data were processed

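The values analysed were read counts per gene and cell from 106 Smart-seq3xpress libraries (4264 cells) and peak positions from 22 ATAC-seq libraries. Per the submitters' processing notes, RNA reads went through FastQC 0.11.9, Trimmomatic 0.39 and HISAT2 2.1.0 (GRCm38/mm10), and ATAC reads were handled with MACS 1.4.2, HOMER, SAMtools 1.3.1, Bowtie2 2.2.5 and Trimmomatic 0.38. The sources used here name no counting tool or gene annotation. The deposited counts were whole numbers, with a median of 622917 reads and 7548.5 genes per cell. The 92 spike-in rows (126 reads) were left out. A second deposited table of length-scaled scores gave only relative transcript lengths. The peak lists hold a score per peak as deposited by the authors, used only to rank peaks within a list.

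Cells were summed per library. The in vivo lines (44 libraries), cultures (26) and adults (18) were fitted separately with edgeR 4.0.16 (filterByExpr, TMM, quasi-likelihood F test, robust, R 4.3.3), with all groups of a set sharing one estimate of the spread. The trended dispersion was kept at or above 0.0001, because edgeR gave faulty deviances below it for genes with very many reads. P-values were adjusted by Benjamini-Hochberg over all genes of a fit and called at 0.05. A log2 difference is a fitted coefficient and its SE is its size divided by the root of F. CPM of libraries used the same scaling factors, and per-length levels compare genes. CPM of single cells and the CPM behind likeness to Serpina6 used totals without scaling factors. The fit was also run on simulated counts of some in vivo groups, with a fixed dispersion and large changes only. The outcome of that run is not given here. It does not cover the culture and adult fits, libraries with few cells or small changes.

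The members, gene lists and contrasts were chosen with earlier results of these data known. The members are always named. Of each list, counts are given, with values for up to 4 genes with the smallest p, and likeness to Serpina6 was Pearson's r of log2(CPM + 1) over group means, naming the 5 highest and 3 lowest genes. Alternatives were DESeq2 1.42.0, no TMM factors, no filter, only the libraries compared, each replicate left out, a replicate block, the Serpina1 copies summed, and the removal of 1347 cells with reads for at least 50% of an erythroid, macrophage, endothelial or stellate marker list (the cholangiocyte list was not used, since it holds hepatoblast genes). For peaks the alternatives were the peaks above each list's median score and an overlap of at least 50% of the shorter interval. Serpina11 and Serpina16 stood on the list of other clade A serpins, and no value of either is given here.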

Additional observations from a re-analysis of the deposited data

Results flagged for a closer look

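Differences between effects were tested for the 10 genes in 6 pairs of effects, and 23 of 60 passed (edgeR, adjusted p below 0.05 over all genes). Of all genes, 12.4% passed for the Pard3 effect from E17.5 to P0 and 15.6% from P0 to P14. The shares were 2.91% for the Cre lines and 0.808% for PD in culture. They were 2.36% for the step from d0 to d2 and 4.70% for that from d2 to d7.

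The Pard3 effect changed between ages. From E17.5 to P0 it rose by 5.07 ± 0.31 for Serpina6 (adjusted p = 4.17e-11) and by 0.97 ± 0.14 for Serpina10 (adjusted p = 3.28e-06). It changed by -7.41 ± 0.67 for Serpina3n, -6.79 ± 1.25 for Serpina3m, -0.92 ± 0.18 for Serpina1d and -1.17 ± 0.32 for Serpina1e (adjusted p = 1.70e-08, 0.000511, 0.000815 and 0.0161). From P0 to P14 it changed by -7.71 ± 0.33 for Serpina6 (adjusted p = 3.76e-14). For the others the change had the opposite sign: 8.57 ± 0.68 for Serpina3n, 7.82 ± 1.21 for Serpina3m, 2.68 ± 0.33 for Serpina1e, 1.39 ± 0.14 for Serpina1a, 1.06 ± 0.18 for Serpina1d and 0.42 ± 0.14 for Serpina10 (adjusted p = 1.66e-09, 5.61e-05, 2.28e-06, 6.40e-08, 0.000119 and 0.0333). The last of these ended without some single libraries (adjusted p = 0.0707 to 0.165), and without scaling factors it was -0.04. The first change of Serpina1e ended when only the 8 libraries were fitted (adjusted p = 0.0946).

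The 2 Cre lines differed at E17.5 for Serpina3n by -2.91 ± 0.61 (adjusted p = 0.00757), a difference that depended on single libraries. In culture the PD effect differed between Pard3HMKO and Pard3WT for Serpina6 by 3.75 ± 0.53 (adjusted p = 0.00229) and for Serpina10 by 1.25 ± 0.30 (adjusted p = 0.0484).

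After hepatectomy the step from d0 to d2 was larger in Pard3HMKO for Serpina3n by 2.33 ± 0.32, for Serpina3m by 1.17 ± 0.26 and for Serpina3k by 1.07 ± 0.22 (adjusted p = 0.000361, 0.0161 and 0.0103). The Serpina3k difference ended without Pard3WT d0 replicate 1 (adjusted p = 0.0687) or Pard3HMKO d2 replicate 2 (adjusted p = 0.0631). The step from d2 to d7 was more negative in Pard3HMKO for Serpina3n by -2.22 ± 0.27, for Serpina3k by -1.79 ± 0.18, for Serpina3m by -0.85 ± 0.22 and for Serpina1c by -1.06 ± 0.21 (adjusted p = 2.16e-05, 4.24e-06, 0.025 and 0.00375). All of these steps share the d2 libraries, one of which has 7 cells.

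In 1 of 20 group and gene combinations a library stood far from the others: at hepatectomy d7 in Pard3WT the highest of 4 libraries held 8310 CPM of Serpina1b and the next 7569. Chance flags about 1 in 20.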

How the results depend on the processing

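Without TMM factors the median gene shifted by over 0.1 in 25 of 36 comparisons (from -0.77 to 0.71), and signs turned for Serpina10 with Pard3 deletion (0.65), with the label YapHMKO (0.48) and with both (0.58) at E17.5, for Serpina1b with the label YapHMKO (0.03) and from E15.5 to E17.5 (-0.22), and for the change of the Pard3 effect on Serpina10 from P0 to P14 (-0.04). With the Serpina1 copies summed, signs turned at P14 with Pard3 deletion for Serpina1a and Serpina1e (-0.38), at E19.5 for Serpina1b (-0.60), from P0 to P14 for Serpina1b, Serpina1c and Serpina1d (-0.40) and with U0126 for Serpina1c (-0.11). Counts of called members that moved by over 1.5 times are given next, and the cause was not tested. The share of all genes called under each setting is not given here. A moved count therefore cannot be told apart from a change in calls over all genes. DESeq2 called 2 for the Cre line difference, 5 for PD in Pard3WT and 4 for the PD difference. Without a filter the counts were 1 and 2 for Pard3 deletion at E13.5 and E15.5, 4 for YapHMKO at E15.5, 4 for the Cre line difference, 5 for PD and 5 for U0126 in Pard3WT, 4 for PD in YapWT and 7 for the PD difference. Without cells holding markers of other types they were 4 for AlfpCre, 0 for YapHMKO at E15.5, 0 for the Cre line difference and 4 each for PD in Pard3WT and the PD difference. With only the libraries compared they were 0 for YapHMKO at E15.5, 5 for E19.5 against E17.5, 9 for P14 against P0, 0 for the Cre line difference, 4 for PD in Pard3WT, 1 for PD in YapWT, 2 for YapHMKO cultures and 2 for the deletion at d2. Without TMM factors they were 2 for the deletion at d2, 1 for the d0 to d2 difference and 2 for the d2 to d7 difference. The replicate block changed the counts to 1 for YapHMKO at E15.5 and 4 for PD in Pard3WT, and over single genes it left 402 of 420 on the same side of the threshold, added 10 calls and ended 8. Deviations of same-numbered libraries from their group means correlated at -0.054 to 0.06 over 106 pairs. In groups of 2 libraries both replicates give the same correlation, so many of these pairs repeat each other. These values cannot decide whether the numbers pair the libraries. Without single replicates the counts ranged from 0 to 2 for YapHMKO at E15.5 and the Cre line difference, 1 to 2 for PD in Pard3WT and the PD difference, 0 to 4 for PD in YapWT, 4 to 8 for YapHMKO cultures, 4 to 7 for AlfpCre, 2 to 6 for the deletion at d2, 1 to 4 for the d0 to d2 and 2 to 4 for the d2 to d7 difference. Without Pard3WT d2 replicate 2, which leaves the 7-cell library with 0 reads, the d2 to d7 difference of Serpina6 became -7.88, and without replicate 1 it was 0.41. Peaks near the members gained or lost were, above the median score, 0 for the label YapHMKO, 1 for PD in Pard3WT, 1 for Pard3HMKO cultures and 0 for PD in Pard3HMKO; with the stricter overlap, 1 for each E17.5 deletion; and without single replicates 2 to 4 for Pard3 deletion at E17.5, 4 to 6 for PD, 3 to 6 for TPPB and 4 to 5 for Pard3HMKO cultures. Most groups hold 2 libraries, which limits precision, and a peak under the caller's threshold cannot be told from none.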
